A study of Caenorhabditis elegans with 12 samples.

Results

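The 9 genes described here build or shed the worm's outer coat at each moult, and comprise 2 nuclear hormone receptors that control moulting (nhr-23, nhr-25), 2 proteins of the apical extracellular matrix (noah-1, noah-2), 3 genes named for moulting defects (mlt-8, mlt-10, mlt-11) and 2 secreted proteases (nas-36, nas-37). They were taken by symbol from a table of 46726 gene identifiers, and each symbol matched 1 identifier. All 9 were among the 14965 genes tested, which had a mean of at least 5 normalized counts over the libraries. RNA-seq libraries came from whole wild-type N2 larvae of Caenorhabditis elegans at the late L1 stage, with 3 cultures given a mixture of ascr#3, ascr#8 and ascr#2 dissolved in ethanol (treated libraries 1 to 3) and 3 given ethanol alone (control libraries 4 to 6). These compounds are ascarosides, the small-molecule pheromones by which worms sense crowding. A single synchronous population was split into the 6 cultures at 6 h after hatching, and RNA was taken after 3 h, so a replicate is a culture and not a separately grown population. The sample labels give 5 µM total ascarosides and the study's methods a lower concentration. The libraries of daf-22(ok693) worms, which cannot make these pheromones, were not analysed here.

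A larva moults at the end of every larval stage. The epidermis first secretes a temporary precuticle, then lays down the new cuticle beneath the old one, and lastly releases proteases that free the old cuticle so that the animal can crawl out. Many of the genes involved are switched on and off once per larval stage, and NHR-23, the worm counterpart of the fly ecdysone-response receptor DHR3 and of mammalian ROR, is one of the regulators needed for that rhythm.

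Values are normalized counts, that is, the authors' reads per gene scaled by one size factor per library. The libraries held 11133417 to 19116807 reads on genes, and a member had between 302 reads (nas-36 in treated library 3) and 16388 reads (mlt-11 in control library 4), so counting error was at most 5.75% of a value. Treated cultures differed among themselves less than controls, with a median SD on the log2 scale of 0.15 in treated and 0.24 in control libraries over all tested genes. Markers of epidermis, intestine, muscle, neurons and germline were present, apart from nos-2 of the germline (at most 6.72 normalized counts), while the 6 adult markers (5 vitellogenins and col-19) summed to 2.61 to 14.3 normalized counts in treated and 20.2 to 30.2 in control libraries.

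None of the 9 genes passed the test across all genes (limma, Benjamini-Hochberg adjusted p under 0.05), against 3.52% of all tested genes, of which 1.46% were lower and 2.06% higher with ascarosides. The nearest was nhr-23, at an adjusted p of 0.0533. At an unadjusted p under 0.05 in limma, 4 of the 9 (44.4%) were lower with ascarosides, against 7.13% of all tested genes. These were nhr-23, noah-1, noah-2 and mlt-11. By that measure 0 of the 9 were higher, against 1204 of all 14965 tested genes. In 3 of the 9 (33.3%) every treated value lay below every control value, against 9.53% of all tested genes, and in 0 of the 9 every treated value lay above, against 9.78%. The median log2 fold change, treated over control, was -0.15 for the 9 genes and 0.0019 for all tested genes. The members vary together over the same 6 libraries, so these counts are not independent pieces of evidence. The 9 genes, and the further lists below, were also chosen with earlier results of these data known. The shares over all tested genes are therefore not a test of the lists. For a single gene, an exact two-sided permutation test of 3 against 3 cultures cannot give a p below 0.1. nhr-23, noah-2 and mlt-8 reached that value, and the other 6 members had an exact permutation p of 0.2 or more.

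**Figure D1:**
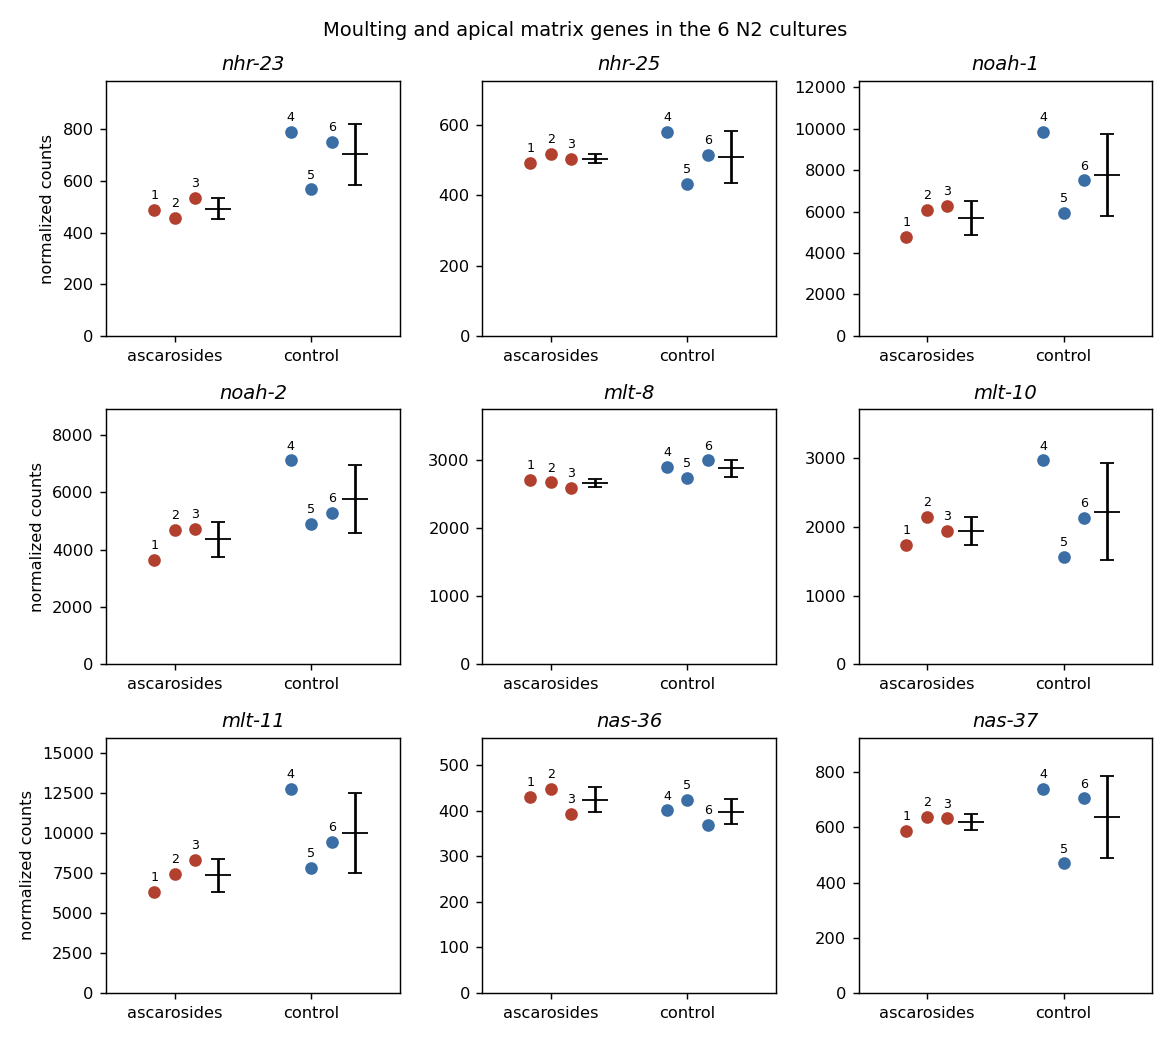
Normalized counts (vertical axes, from 0) of the 9 genes in each N2 library, with the 3 ascaroside cultures left of the 3 control cultures; points carry the library number, and bars give the mean and SD of each group. Treated and control points do not overlap for nhr-23, noah-2 and mlt-8, and control library 4 is the highest point in 7 of the 9 panels.

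Of the regulators, nhr-23 (WBGene00003622, chromosome I) had 489, 456 and 535 normalized counts in treated libraries 1, 2 and 3, against 790, 567 and 752 in control libraries 4, 5 and 6. All treated values lay below all control values, though treated library 3 and control library 5 were close to each other. The group means were 493 ± 39.3 with ascarosides and 703 ± 118.99 in controls (SD, n = 3 each), a log2 fold change of -0.50 with a 95% interval from -0.79 to -0.21 (limma, unadjusted p = 0.00194, adjusted p = 0.0533). On a linear scale the treated level was 0.708 times the control level. Whether nhr-23 counts as called depends on the method. With edgeR on the recovered reads the adjusted p was 0.0429 and with DESeq2 0.0220. In limma it was 0.0473 with a pseudocount of 5, 0.0275 with no filter on low values and 0.0454 with the robust option. It was 0.0509 with a minimum mean of 50 and 0.0565 with a pseudocount of 0.5. It was 0.0647 with upper-quartile scaling, 0.0725 with quantile normalization and 0.307 with eBayes without trend. Without control library 5 it was 0.00367 in limma (log2 fold change -0.65), while without any one of the other 5 libraries it was between 0.0545 and 0.297. Of the 16 alternatives that were run, 6 called nhr-23, and its log2 fold change was negative in all 16, from -0.65 to -0.41. Much of this agreement in sign was given in advance. Several settings reuse the same log2 values, and as the groups do not overlap, leaving out a library could not turn the sign.

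nhr-25 (WBGene00003623, chromosome X), which encodes the counterpart of the fly receptor Ftz-F1 and also acts in the epidermis, showed no such separation of the groups. It had 491, 518 and 503 normalized counts in treated libraries 1 to 3, against 580, 432 and 516 in control libraries 4 to 6. The treated values lay inside the range of the controls, with means of 504 ± 13.4 with ascarosides and 510 ± 74.5 in controls (SD, n = 3 each). The log2 fold change was -0.0049, with a 95% interval from -0.28 to 0.27 (limma, adjusted p = 0.991), and its sign turned under quantile normalization (0.022) and upper-quartile scaling (0.0053). Dividing one receptor by the other within a library removes the scaling between libraries. The ratio of nhr-23 to nhr-25 counts was 0.995, 0.881 and 1.06 in treated libraries 1 to 3, against 1.36, 1.31 and 1.46 in control libraries 4 to 6. The ratio was lower in every treated library, and control library 5, where both genes were at their lowest among controls, had a ratio like the other controls. It was 1 of 7 ratios computed, chosen after the values were seen, and 2 of the 7 separated the groups, the other being nhr-23 over mlt-8 (0.181, 0.171 and 0.207 in treated, against 0.273, 0.207 and 0.252 in control libraries, with treated library 3 and control library 5 equal to 3 digits).

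The apical matrix pair encodes zona pellucida domain proteins related to fly NompA, which lie outside the epidermal surface and help to attach and pattern the cuticle. noah-1 (WBGene00016422, chromosome I) had 4755, 6064 and 6283 normalized counts in treated libraries 1 to 3, against 9832, 5918 and 7500 in control libraries 4 to 6. Control library 4 was far above the rest, and control library 5 lay below treated libraries 2 and 3, so the groups overlap. The means were 5701 ± 826 with ascarosides and 7750 ± 1969 in controls (SD, n = 3 each), with a log2 fold change of -0.42 (95% interval -0.76 to -0.09, limma adjusted p = 0.185). noah-2 (WBGene00009926, chromosome IV) had 3648, 4681 and 4730 in treated libraries, against 7100, 4898 and 5277 in controls. Here all treated values lay below all control values, but control library 5 was only slightly above treated library 3. The means were 4353 ± 611 with ascarosides and 5758 ± 1177 in controls (SD, n = 3 each), with a log2 fold change of -0.39 (95% interval -0.69 to -0.10, limma adjusted p = 0.165).

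The size of the difference between the groups in the noah genes varied with the culture left out. Without control library 5 noah-1 had a log2 fold change of -0.60 and an adjusted p of 0.0220 in limma, and noah-2 one of -0.50 and 0.0563. Without control library 4 the log2 fold changes were -0.24 for noah-1 and -0.23 for noah-2 (adjusted p = 0.220 and 0.182), and without treated library 1, the lowest for both, they were -0.30 and -0.27 (0.617 and 0.602). All these values were negative.

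Among the mlt genes, mlt-11 (WBGene00012186, chromosome V) encodes a secreted protein with Kunitz-type protease inhibitor domains. It had 6289, 7463 and 8336 normalized counts in treated libraries 1 to 3, against 12750, 7808 and 9452 in control libraries 4 to 6. As for noah-1, control library 4 was the highest, and control library 5 lay among the treated values. The means were 7362 ± 1027 with ascarosides and 10003 ± 2516 in controls (SD, n = 3 each), with a log2 fold change of -0.42 (95% interval -0.75 to -0.09, limma adjusted p = 0.181). Without control library 5 the log2 fold change was -0.59 (adjusted p = 0.0307), without control library 4 it was -0.23 (0.205) and without treated library 1 it was -0.31 (0.599). Over the 6 libraries the ratio of noah-1 to mlt-11 counts kept between 0.754 and 0.813, so the 2 genes differed from library to library by nearly the same factor whatever the treatment.

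mlt-10 (WBGene00015646, chromosome II), the founding member of a nematode family of secreted epidermal proteins, had 1741, 2146 and 1945 normalized counts in treated libraries, against 2966, 1566 and 2137 in control libraries. The controls spanned the treated values on both sides, and the means were 1944 ± 203 with ascarosides and 2223 ± 704 in controls (SD, n = 3 each). The log2 fold change was -0.15 (95% interval -0.50 to 0.20, limma adjusted p = 0.739), and it turned to 0.08 when control library 4 was left out. In the annotation 109 exonic bases of mlt-10 are shared with lips-7, which had 210 to 427 reads per library, and reads on shared bases may have been given to neither gene.

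mlt-8 (WBGene00021095, chromosome II), found like the other mlt genes by the moulting defects that its loss causes, varied least between cultures, in both groups. It had 2703, 2666 and 2588 normalized counts in treated libraries, against 2891, 2737 and 2986 in control libraries. All treated values lay below all control values, but by little, and treated library 1 was near control library 5. The means were 2653 ± 58.8 with ascarosides and 2871 ± 126 in controls (SD, n = 3 each), a log2 fold change of -0.11 with a 95% interval from -0.32 to 0.10 (limma adjusted p = 0.654).

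The astacin metalloproteases NAS-36 and NAS-37 are needed at the end of the moult to open and shed the old cuticle. nas-36 (WBGene00003552, chromosome I) had 431, 448 and 394 normalized counts in treated libraries, against 401, 424 and 370 in control libraries. The groups overlap, and it was the 1 member with a positive log2 fold change, 0.09 (95% interval -0.17 to 0.35, limma adjusted p = 0.791). nas-37 (WBGene00003553, chromosome X) had 587, 638 and 632 in treated libraries, against 739, 469 and 705 in control libraries. Its treated values sat between control library 5 and the other 2 controls, with means of 619 ± 27.7 with ascarosides and 638 ± 147 in controls (SD, n = 3 each) and a log2 fold change of -0.01 (95% interval -0.33 to 0.30, limma adjusted p = 0.979). The sign of nas-37 turned positive when treated library 1 or control library 4 or 6 was left out, at most to 0.11. For these proteases, for nhr-25 and for mlt-8 and mlt-10, the intervals include 0, which does not show that they are unaffected: that of nas-37, for example, runs from 0.795 to 1.23 times the control level.

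**Figure D2:**
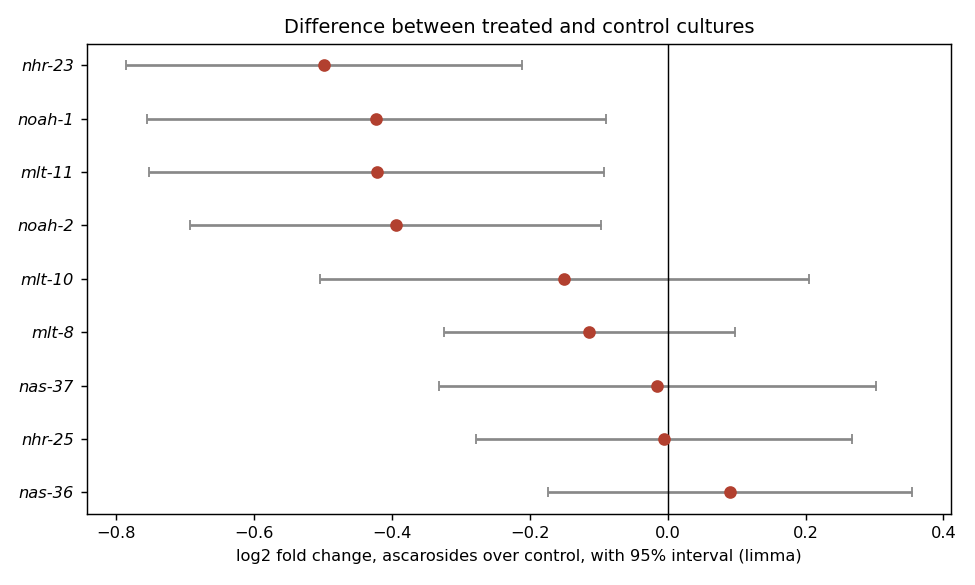
Log2 fold change of each gene, ascarosides over control (points), with its unadjusted 95% interval from limma (bars), ordered down the page from the lowest. The intervals of nhr-23, noah-1, mlt-11 and noah-2 lie below 0 and those of the other 5 genes include 0, but 0 of the 9 passed the adjusted threshold.

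Libraries ordered the members in a recurring way. Control library 4 held the highest value of 7 of the 9 members (77.8%), against 16.7% of all tested genes, and treated library 1 or control library 5 held the lowest of 3 each. Relative to the mean of the other 2 controls, control library 4 was 1.60 times as high for mlt-10, 1.48 times for mlt-11, 1.47 times for noah-1, 1.40 times for noah-2 and 1.20 times for nhr-23, but 1.01 times for mlt-8 and for nas-36. Control library 5 was 0.614 times the mean of the other controls for mlt-10, 0.650 times for nas-37 and 0.683 times for noah-1. In each of the 9 members the SD on the log2 scale was larger among controls than among treated cultures, as it was in 68.9% of all tested genes. The median SD of the members was 0.11 in treated and 0.28 in control libraries.

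Across the 6 libraries Pearson's r of log2 values exceeded 0.8 in 12 of the 36 pairs of members, and 8 pairs, all with nas-36, were negative. The highest were 0.992 for noah-1 with mlt-11 and 0.979 for noah-1 with noah-2, and nhr-23 had 0.858 with noah-1 and 0.876 with mlt-11. nhr-25 went most closely with mlt-10 (0.953) and nas-37 (0.951), which shared its low value in control library 5. mlt-10 also had 0.863 with noah-1 and 0.834 with mlt-11. These correlations rest on 6 points that share the libraries, the scaling and the treatment, and serve as a description.

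**Figure D3:**
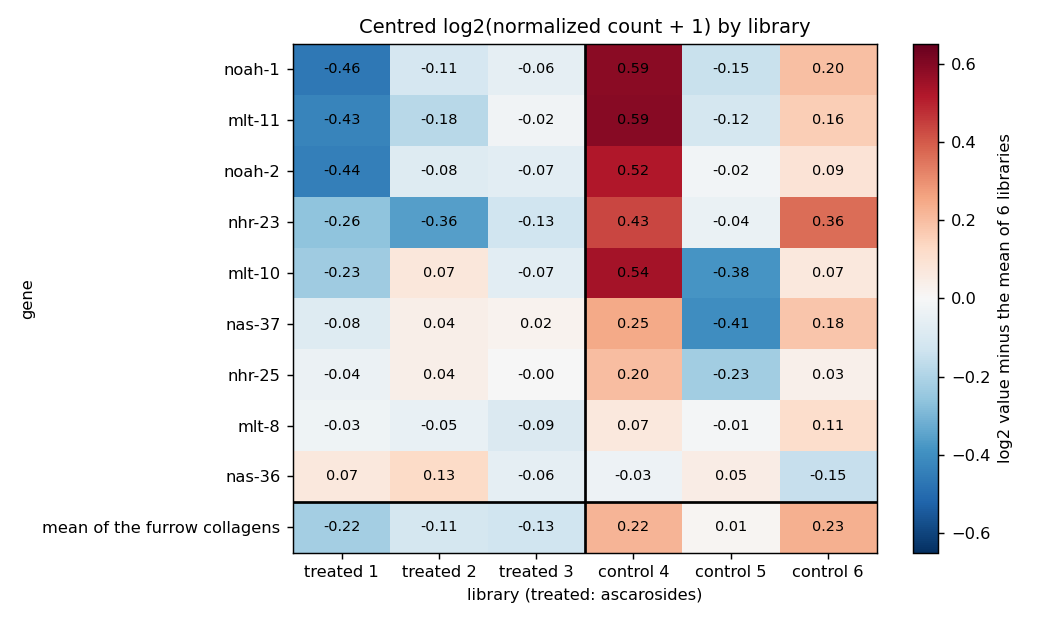
Heatmap of log2(normalized count + 1) minus the gene's mean over the 6 libraries, for the 9 genes and the mean of 6 furrow collagens (rows) by library (columns, treated left of control); red is above the mean and blue below. noah-1, mlt-11, noah-2 and nhr-23 share a high control library 4 (0.43 to 0.59) and negative values in all treated libraries and in control library 5 (-0.15 to -0.02 there). mlt-10, nas-37 and nhr-25 share a low control library 5 (-0.41 to -0.23), and mlt-10 is also high in control library 4 (0.54).

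Levels can be compared between genes only per length. Per kilobase of annotated exon, mlt-8 was the highest in both groups, with 2398 ± 53.2 normalized counts with ascarosides and 2596 ± 114 in controls (SD, n = 3 each). It was followed by noah-2, with 1697 ± 238 with ascarosides and 2244 ± 459 in controls, and noah-1, with 1502 ± 218 with ascarosides and 2042 ± 519 in controls. Then came mlt-10 and mlt-11, in this order with ascarosides and in the reverse order in controls. mlt-10 had 831 ± 86.6 with ascarosides and 951 ± 301 in controls, and mlt-11 752 ± 105 with ascarosides and 1021 ± 257 in controls. The remaining 4 genes lay well below these, between 187 and 244 per kilobase with ascarosides and between 176 and 278 in controls. nhr-23 was the third of these 4 with ascarosides (195 ± 15.6) and the highest of them in controls (278 ± 47.1). Among treated libraries the neighbouring pairs noah-2 and noah-1, mlt-10 and mlt-11, nhr-25 and nhr-23, and nhr-23 and nas-36 overlapped in their values. Among controls all neighbours overlapped except at the steps below noah-1 and below mlt-10. Against all tested genes with an annotated length, the members ranked from percentile 56.7 (nas-36) to 95.6 (mlt-8).

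The 48 further genes of moulting and of the apical matrix, in 8 lists, were read in the same fit. Of these 1 passed the adjusted threshold, against 3.52% of all tested genes. It was the furrow collagen dpy-3, which was lower with ascarosides. At an unadjusted p under 0.05 in limma 11 of the 48 (22.9%) were lower, against 7.13% of all tested genes. By that measure 1 of the 48 was higher, against 1204 of all 14965 tested genes. In 11 of the 48 (22.9%) the treated values all lay below the control values, against 9.53% of all tested genes. In 2, bli-5 and cpl-1, they all lay above, against 9.78% of all tested genes. The median log2 fold change of the 48 was -0.07. Which of them pass depends on the method. With DESeq2 lin-42, sym-1, dpy-3 and dpy-9 had an adjusted p under 0.05, as did 4.22% of all tested genes. With edgeR 0 of the 48 did (adjusted p of dpy-3 = 0.0607), against 3.60% of all tested genes. Without control library 4 there were 6, but 9.60% of all tested genes were called in that fit. Of the 6, mup-4, vab-10 and let-805 were higher and lin-42, dpy-3 and dpy-9 lower.

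The furrow collagens form the circumferential furrows of the cuticle. All 6 had a negative log2 fold change, with a median of -0.34. In 5 of the 6 (83.3%) every treated value lay below every control value, against 9.53% of all tested genes. dpy-3 (WBGene00001065) had 1635, 1758 and 1816 normalized counts in treated libraries 1 to 3, against 2444, 2121 and 2268 in control libraries 4 to 6. Its log2 fold change was -0.39 (standard error 0.105, limma adjusted p = 0.0487, and between 0.0151 and 0.293 over the 16 alternatives, of which 6 gave a call), and this call was lost without any one of treated libraries 1, 2 and 3 or control library 6 (adjusted p = 0.293, 0.205, 0.125 and 0.155). The lowest value was that of dpy-9, -0.39 (adjusted p = 0.0783), and the highest that of dpy-8, -0.14 (adjusted p = 0.624). The groups overlapped in dpy-8, with 2978 to 3212 normalized counts in treated libraries, against 2873 in control library 5.

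In the precuticle list of 8 genes 7 had a negative log2 fold change, with a median of -0.21. The lowest was sym-1, a secreted leucine-rich repeat protein, with 2853, 3576 and 3447 normalized counts in treated libraries, against 4848, 3806 and 4440 in controls (log2 fold change -0.41, limma adjusted p = 0.0820), and the highest egg-6 with 0.0018. Among 8 genes of timing and transcription the lowest was lin-42, the worm counterpart of the clock gene Period, which helps to set the timing of moults. It had 4396, 5263 and 5517 normalized counts in treated libraries, against 7477, 6089 and 6628 in controls, so that the groups do not overlap (log2 fold change -0.41, limma adjusted p = 0.0733). The highest of this list was grh-1 with 0.09.

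The other lists were more mixed. Among 10 genes of uptake, trafficking and hedgehog-related signalling, values ran from -0.37 for mlt-3 (adjusted p = 0.135) to 0.22 for nekl-2 (adjusted p = 0.608), with a median of -0.01. Among 7 proteases and inhibitors they ran from -0.38 for nas-38, another astacin of the moulting cycle (546 ± 48.8 normalized counts with ascarosides and 713 ± 81.8 in controls, SD, n = 3 each, limma adjusted p = 0.115), to 0.53 for bli-5, a Kunitz-type inhibitor with few reads (55.8 ± 13.3 with ascarosides and 37.7 ± 0.974 in controls, SD, n = 3 each, limma adjusted p = 0.373). Among 4 genes of the peroxidase and cross-linking list the extremes were mlt-7 (-0.16) and bli-3 (0.06), and mlt-9 had -0.12. The 4 genes that anchor the epidermis to cuticle or muscle had a positive median of 0.20, from -0.24 for mua-3 to 0.29 for mup-4 (adjusted p = 0.263). In these lists 0 genes passed the adjusted threshold.

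**Figure D4:**
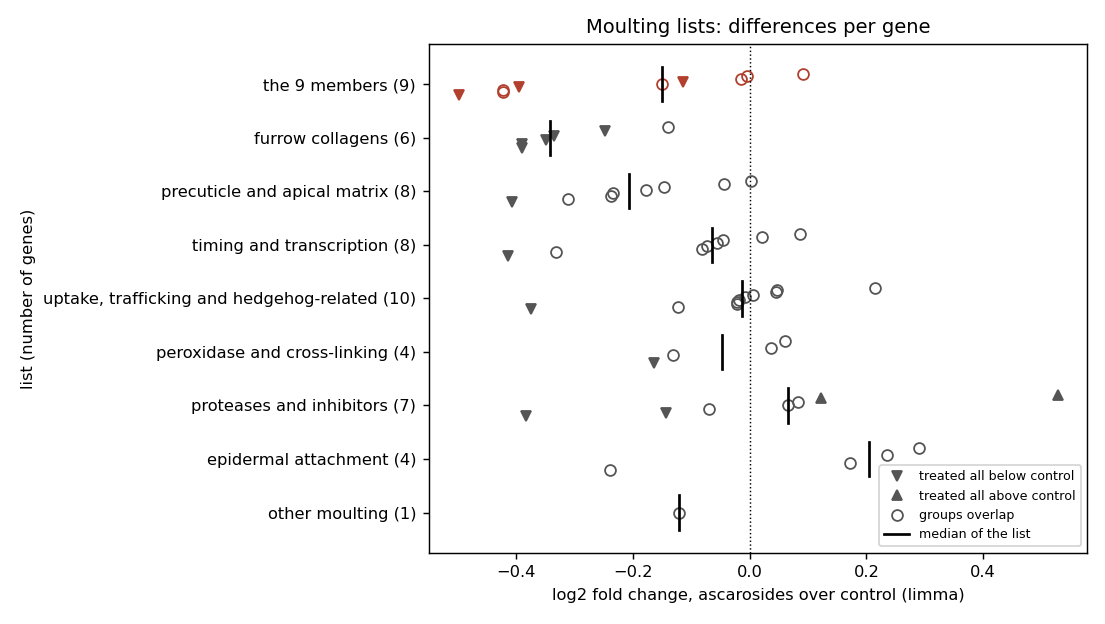
Log2 fold change, ascarosides over control, of the 9 genes (red) and of the 48 further genes by list (rows, number of genes in brackets); filled triangles mark genes whose treated values all lie below (pointing down) or above (pointing up) the controls, open circles those whose groups overlap, and black lines the list medians. Medians run from -0.34 for furrow collagens to 0.20 for epidermal attachment.

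In whole larvae, fewer epidermal cells and less RNA per cell cannot be told apart. General epidermal markers did not all lean one way: of 6 (lin-26, ajm-1, elt-1, elt-3, che-14 and vha-5) 3 had a negative and 3 a positive log2 fold change, from -0.38 for lin-26 to 0.26 for vha-5, with 1 lower and 1 higher at an unadjusted p under 0.05 in limma and 0 past the adjusted threshold. Their summed level was 10411 to 12012 normalized counts in treated and 8715 to 11124 in control libraries. Most of this sum came from ajm-1 (3657 to 5151 over the 6 libraries) and vha-5 (3471 to 5149), both with a positive log2 fold change (0.21 and 0.26). The 3 with a negative one, lin-26, elt-1 and che-14, had far fewer counts, so the sum says little about them. The summed level of 5 body muscle markers was 92491 to 116010 normalized counts in treated libraries, against 115805, 72258 and 78056 in control libraries 4, 5 and 6. Most of it came from unc-54 (74392, 43694 and 47675 in those controls), and hlh-1 (157, 163 and 144) did not follow this order. The epidermal and neuronal sums were likewise highest among controls in library 4 and lowest in library 5, while the intestinal and germline sums were highest in library 5. Of the 5 muscle markers, myo-3 was higher and hlh-1 lower at an unadjusted p under 0.05 in limma. The 6 intestinal markers summed to 29745 to 34044 normalized counts in treated and 29260 to 36952 in control libraries. Of these ges-1, a gut esterase, was the 1 marker of any list past the adjusted threshold. It had 1047, 1198 and 1115 normalized counts in treated libraries, against 638, 652 and 657 in control libraries, 1.72 times as high (limma adjusted p = 4.20e-04). The 5 neuronal markers summed to 12281 to 12865 in treated and 9532 to 12590 in control libraries, with egl-3 higher at an unadjusted p under 0.05 in limma (adjusted p = 0.305), and the 5 germline markers to 1525 to 1654 in treated and 1252 to 1503 in control libraries, with 0 of the 4 tested at that level. The part of these shifts between cultures in the values of the members was not tested.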

How the data were processed

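The authors sequenced poly(A)-selected RNA as 50-nt single reads, aligned it with tophat2 and counted reads per gene with HTSeq-count. They deposited a signal per gene, the read count scaled with DESeq's size factors. The methods name Ensembl WBcel215 and the submitters' processing notes WBcel235, so no coordinates are given; Ensembl's WBcel235 annotation served for chromosomes, exon lengths and overlaps. Tool versions and strand setting are not given in the sources used here, so overlapping genes are uncertain. Columns name the group but not the labels' replicate number, and 0 further columns held values. The last 5 lines, reads given to no gene (33.1% to 41.8% of column totals), were left out. Most of these were reads without a unique alignment (31.6% to 40.4% of column totals), which may or may not lie in genes. A table of gene names matched 43623 of 46726 identifiers.

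The test was limma 3.58.1 in R 4.3.3 (eBayes with trend, two-sided) on log2(normalized count + 1), which slightly understates changes of low genes, for genes whose mean reached 5, with Benjamini-Hochberg adjustment over all 14965. Whole reads were recovered for 100% of values (within 0.01 of a whole read) and used in edgeR 4.0.16 (which called 538 genes) and DESeq2 1.42.0. Scripts were tested on simulated data. Other alternatives were pseudocounts of 0.5 and 5, a minimum mean of 50 or none, upper-quartile scaling, quantile normalization, eBayes untrended or robust, and leaving out each library. Two-sided exact permutation tests used scipy 1.17.1. The 9 genes and all lists were chosen with earlier results of these data known. Named are all members, called genes and the extremes of each moulting list (markers by counts and ranges), and the 5 genes most correlated with the members' mean profile and with nhr-23; all others were chosen after their values were seen.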

Additional observations from a re-analysis of the deposited data

How the results depend on the processing

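No paired analysis was possible because nothing ties a column to a labelled replicate number, so no replicate block was fitted. With all 6 libraries 1 member, always nhr-23, was called at 5 settings. These were a pseudocount of 5 (3.72% of all genes called), no filter (2.28%), the robust option (3.41%), edgeR (3.60%) and DESeq2 (4.22%). Otherwise 0 members were called. The share of all genes was then 3.42% with a pseudocount of 0.5, 4.58% with a minimum mean of 50, 3.30% with quantile normalization and 3.44% with upper-quartile scaling. The number of the 48 further genes called was 0 with a pseudocount of 0.5, no filter, upper-quartile scaling, eBayes without trend, the robust option and edgeR, 5 with quantile normalization (lin-42, sym-1, dpy-2, dpy-3 and dpy-10) and 4 with DESeq2. Without the trend 1 gene of all tested was called, and the members lower at an unadjusted p under 0.05 numbered 1, against 5.84% of all genes. The sign of nhr-25 turned with quantile normalization (0.022) and upper-quartile scaling (0.0053). With one library left out, members called ranged from 0 to 3 (3 without control library 5, namely nhr-23, noah-1 and mlt-11), further genes called from 0 to 6, all genes called from 217 to 1436 (1436 without control library 4), members lower at an unadjusted p under 0.05 from 1 (without treated library 1, against 5.14% of all genes there) to 5 (without control library 5, against 6.87%), members whose treated values all lay below the controls from 3 to 6 (6 without control library 5, against 13.4% to 19.6% of all genes over the 6 fits), the median of the members from -0.38 to -0.11, mlt-10 from -0.38 to 0.082, nas-37 from -0.22 to 0.11 and nhr-25 from -0.12 to 0.094. These 2 counts of members at other settings were added after seeing the data. Leaving out a library lowers the number of samples by construction. The number of genes whose groups do not overlap can then only stay the same or rise. Why other counts rose without control library 4 or 5 was not tested. nhr-23, noah-1, noah-2, mlt-8 and mlt-11 kept a negative and nas-36 a positive sign in all 16 alternatives. Several of these settings reuse the same log2 values, so the sign could not differ between them. For nhr-23, noah-2 and mlt-8, whose groups do not overlap, leaving out a library could not turn the sign either. Counting error reached 5.75% for nas-36, beside a coefficient of variation of 6.50% in treated and 6.89% in control libraries.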

Other observations

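Outside the lists, the 5 genes whose 6 log2 values went most closely with the mean profile of the 9 genes were T06A4.1 (Pearson's r = 1.000 after rounding), lron-1 (0.996), nhr-159 (0.994), K10D3.4 (0.993) and chtb-1 (0.992). K10D3.4 had 2947, 3724 and 3736 normalized counts in treated libraries 1 to 3, against 5521, 3295 and 4440 in control libraries 4 to 6, so that it too was highest in control library 4 and overlapped between groups through control library 5. nhr-159 had at most 21.8 normalized counts in any library. The 5 nearest to nhr-23 were F42A8.1 (0.989), hgap-2 (0.988), WBGene00021837 (0.986), ZC13.10 (0.985) and lrpc-1 (0.985). Of these, WBGene00021837 had at most 12.4 and ZC13.10 at most 14.8 normalized counts in any library. F42A8.1 had 644, 593 and 670 normalized counts in treated libraries, against 1225, 800 and 1062 in control libraries, without overlap. Over these 6 points r exceeded 0.9 for 1.33% of all tested genes with the mean profile and for 0.946% with nhr-23, so the genes named are the highest of 14965 over few points.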
